A study of Mus musculus with 12 samples.

Results

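The genes described here handle the storage of fat in liver cells: Pparg, Cd36, Cidec, Cideb, Fitm1, Fitm2, Plin2, Plin4, Mogat1 and G0s2. They were taken by symbol from the platform annotation of an Affymetrix mouse array. A probe set carried the symbol of 9 of the 10 genes, out of 12393 genes on the array, through 11 probe sets, and no probe set is listed for Fitm2. Several of the 10 were picked because they differed between the genotypes in these same arrays, so every genotype difference of these genes below is a description and carries no test.

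Liver RNA came from 12 adult male C57BL6/J mice aged 8 weeks, 3 in each of 4 groups: liver-null APAP, liver-null saline, wild-type APAP and wild-type saline. Liver-null mice carried a conditional-null Txnrd1 allele disrupted by albCre, a recombinase made in hepatocytes, so other liver cells keep the gene. Whether the wild-type mice carried the conditional allele or the recombinase is not given in the sources used here. APAP (acetaminophen, 100 mg/kg) or saline was injected into the peritoneum and the liver was taken 8 hours later. Txnrd1 encodes cytosolic thioredoxin reductase. Its bright probe set was higher in the livers labelled liver-null (10.26 to 10.58 on the log2 scale in 6 arrays, against 9.43 to 9.81 in 6 wild-type arrays), and because its position relative to the deleted part is not known here, it does not check the labels. The other Txnrd1 probe sets were dim, with group means of 1.40 to 1.49 and 1.81 to 2.00, and did not show this rise. The arrays also fell into sets of 8 and 4 that differ in the upper quartile of their values. The labels do not name these sets. The smaller set holds 1 array of every group, namely liver-null APAP 17, liver-null saline 16, wild-type APAP 14 and wild-type saline 10. Array numbers are the numbers that end the labels. Every label also reads mouse 8, and the ending number was taken to mark a separate mouse.

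Hepatocytes store surplus fatty acids as triglyceride in lipid droplets, which bud from the endoplasmic reticulum and carry coat proteins that regulate their growth and breakdown. PPAR-gamma, the product of Pparg, is a nuclear receptor that pairs with the retinoid X receptor on DNA and switches on uptake and storage genes. It is abundant in fat cells and scarce in healthy liver, and in mice it rises in fatty liver. Cd36 takes up long-chain fatty acids, Fitm1 and Fitm2 bind triglyceride and help droplets bud, and Cidec and Cideb belong to a family of droplet proteins. Plin2 and Plin4 are droplet coat proteins, Mogat1 makes diacylglycerol from monoacylglycerol, and G0s2 inhibits adipose triglyceride lipase.

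Promoter windows are shown for 6 of the genes because they hold letters like the sites of PPAR-gamma or NRF2, the oxidative stress factor that other reports of thioredoxin reductase loss concern. The windows come from RefSeq on GRCm38.p6 and run from 250 bases before to 50 bases after an annotated start, 5′ to 3′ on the gene's strand, with motif matches in capitals. The direct repeat bound by PPAR-gamma with its partner, AGGTCA and again AGGTCA with 1 base of any kind between, was searched on both strands with up to 2 mismatches. It matched in 3 of 13 windows of the 10 genes, those of Cd36, Mogat1 and Plin2, each with 2 mismatches, and in 3.86% of all 32851 windows. The antioxidant response core TGACNNNGC, searched on both strands without mismatches, was found in 3 of the 13 windows, those of Fitm1, Cideb and 1 of the 3 starts of Pparg, and in 12.4% of all windows. No match of one motif overlapped a match of the other in these windows. The windows of Cidec, Plin4, G0s2 and Fitm2 held neither.
Pparg: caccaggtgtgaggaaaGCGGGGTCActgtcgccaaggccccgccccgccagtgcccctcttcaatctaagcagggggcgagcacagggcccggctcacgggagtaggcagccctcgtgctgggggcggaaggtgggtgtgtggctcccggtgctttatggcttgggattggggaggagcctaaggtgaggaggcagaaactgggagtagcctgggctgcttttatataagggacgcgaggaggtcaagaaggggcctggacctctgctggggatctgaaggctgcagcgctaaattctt
Cd36: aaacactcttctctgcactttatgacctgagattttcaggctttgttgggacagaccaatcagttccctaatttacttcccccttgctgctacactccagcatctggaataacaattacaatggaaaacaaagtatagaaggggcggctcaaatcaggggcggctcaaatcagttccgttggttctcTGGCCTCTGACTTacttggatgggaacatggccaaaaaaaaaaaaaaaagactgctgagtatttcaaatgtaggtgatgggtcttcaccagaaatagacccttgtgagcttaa
Mogat1: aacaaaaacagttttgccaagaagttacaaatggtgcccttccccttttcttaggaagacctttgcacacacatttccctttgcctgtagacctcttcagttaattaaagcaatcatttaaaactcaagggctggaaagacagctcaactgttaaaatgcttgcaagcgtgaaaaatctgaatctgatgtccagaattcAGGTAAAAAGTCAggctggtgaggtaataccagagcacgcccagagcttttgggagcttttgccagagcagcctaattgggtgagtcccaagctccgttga
Plin2: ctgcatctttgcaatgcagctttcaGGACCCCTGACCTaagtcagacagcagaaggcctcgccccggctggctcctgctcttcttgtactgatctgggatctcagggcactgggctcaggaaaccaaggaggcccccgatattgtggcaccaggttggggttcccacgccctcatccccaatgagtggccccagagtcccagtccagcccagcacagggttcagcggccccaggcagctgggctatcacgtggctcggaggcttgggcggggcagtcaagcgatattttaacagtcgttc
Fitm1: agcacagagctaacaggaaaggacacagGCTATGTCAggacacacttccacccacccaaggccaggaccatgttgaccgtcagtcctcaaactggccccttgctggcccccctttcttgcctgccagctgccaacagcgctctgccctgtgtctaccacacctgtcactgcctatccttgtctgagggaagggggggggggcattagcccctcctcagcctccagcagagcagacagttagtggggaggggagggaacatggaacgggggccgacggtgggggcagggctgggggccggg
Cideb: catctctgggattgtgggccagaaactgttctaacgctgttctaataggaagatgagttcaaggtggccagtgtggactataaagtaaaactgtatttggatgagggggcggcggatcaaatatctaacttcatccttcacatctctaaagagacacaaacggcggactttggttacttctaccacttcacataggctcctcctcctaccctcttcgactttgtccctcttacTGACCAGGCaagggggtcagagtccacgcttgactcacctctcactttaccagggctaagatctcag
The windows lie at chr6:115362099-115362398, plus strand for Pparg, chr5:17835847-17836146, minus strand for Cd36, chr1:78510810-78511109, plus strand for Mogat1, chr4:86670010-86670309, minus strand for Plin2, chr14:55575424-55575723, plus strand for Fitm1 and chr14:55758375-55758674, minus strand for Cideb. The match lies 233 to 225 bases before the start in Pparg, 63 to 51 in Cd36, 51 to 39 in Mogat1, 225 to 213 in Plin2, 222 to 214 in Fitm1 and 17 to 9 in Cideb. Matches are letters only, and binding was not measured.

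The livers labelled liver-null held more transcript of Pparg, Cd36, Fitm1, Cidec and Plin4 than wild-type livers, with and without APAP, and a little less of Cideb. Plin2 and G0s2 overlapped between the genotypes, except that Plin2 lay lower in liver-null livers after APAP, and Mogat1 was near the dim end of the array. For Pparg, Cd36, Fitm1, Cidec and Plin4, all 6 liver-null arrays lay above all 6 wild-type arrays. For Cideb all 6 liver-null arrays lay below all 6 wild-type arrays. Of all 8469 genes tested, 2.27% separated the 6 livers of each genotype upward and 2.09% downward. Counted over the 3 arrays of each group, 5 of the 9 genes lay wholly higher and 2 wholly lower after APAP (6.97% and 6.91% of all genes), and 6 and 1 in saline (6.48% and 8.7%). Since the genes were picked on this contrast, nothing is read from these counts. In whole liver, a change in the share of a cell type and a change in RNA per cell cannot be told apart. All values below are deposited log2 expression values, ± is the SD of 3 arrays, and levels of different probe sets are not compared.

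**Figure D1:**
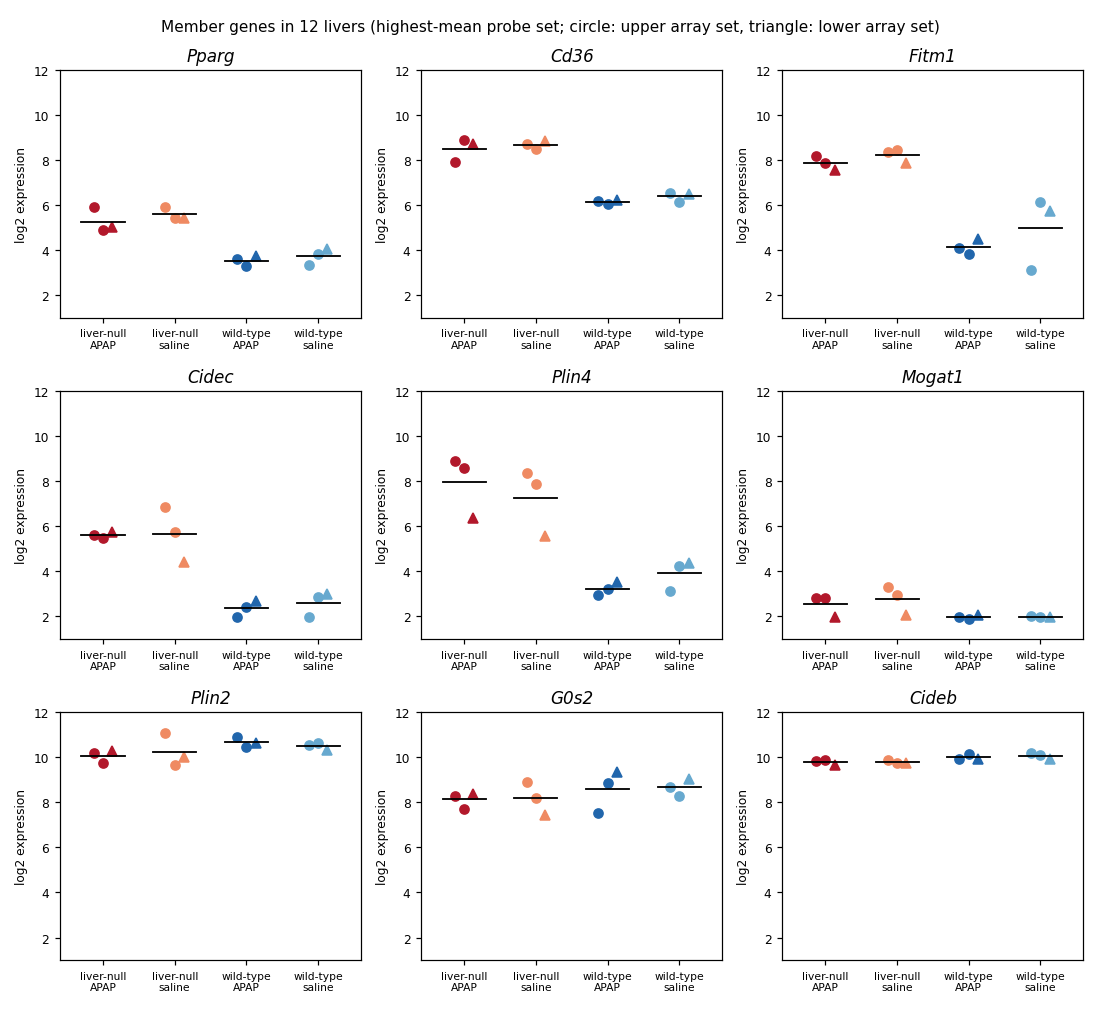
Log2 expression of 9 genes in 12 livers, 1 panel a gene, with the same vertical scale. Points are single arrays (circles for the 8 arrays of the larger set, triangles for the 4 of the smaller) and lines are group means. Pparg, Cd36, Fitm1, Cidec and Plin4 separate the genotypes, while Plin2 and G0s2 overlap.

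Pparg, the receptor itself, read 5.89, 4.89 and 5.004 in liver-null APAP livers, against 3.59, 3.27 and 3.73 in wild-type APAP livers. In saline it read 5.91, 5.42 and 5.44 in liver-null livers, against 3.33, 3.83 and 4.07 in wild-type livers. The groups did not overlap in either treatment, and the smallest gap between any liver-null and any wild-type array was 0.82. The differences in means were 1.73 after APAP and 1.85 in saline (3.32-fold and 3.61-fold). Wild-type values, from 3.27 to 4.07, lay not far above the median of the array (2.91 to 2.99). These folds therefore depend in part on dim values. The single probe set of Pparg has a name that marks several transcripts of 1 gene, so the isoforms that start at its 3 RefSeq windows were not separated.

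Cd36, the fatty acid transporter, was read by 3 probe sets. The brightest read 7.92, 8.90 and 8.70 in liver-null APAP livers, against 6.18, 6.03 and 6.23 in wild-type APAP livers. The saline values were 8.72, 8.49 and 8.82 in liver-null livers, against 6.52, 6.12 and 6.51 in wild-type livers. The liver-null arrays were tightly grouped except liver-null APAP 2, the lowest of the 6, and no group overlapped one of the other genotype. The differences were 2.36 after APAP and 2.30 in saline. A second probe set differed by 2.42 and 2.34. The third, with group means of 3.16 and 3.27 in liver-null and 2.10 and 2.13 in wild-type livers (APAP first), differed by 1.05 and 1.14. All its wild-type values lay below the 40th percentile of the array (2.42 to 2.48), so it passed a filter on dim values only through liver-null arrays and its difference is against background.

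Fitm1, which helps droplets bud and is best known from muscle, read 8.16, 7.88 and 7.54 in liver-null APAP livers, against 4.10, 3.84 and 4.48 in wild-type APAP livers. Without APAP, the readings were 8.34, 8.45 and 7.84 in liver-null livers, against 3.11, 6.15 and 5.73 in wild-type livers. The liver-null arrays agreed within 1 log2 unit, while wild-type saline 8 stood far below the other wild-type saline arrays. Its value of 3.11 lay close to the median of the array (2.91 to 2.99), so the saline difference depends in part on a dim value. The difference was 3.72 after APAP (13.2-fold) and 3.22 in saline, and the saline difference was 2.27 without wild-type saline 8. The promoter window of Fitm1 begins 183 kb from that of Cideb on chromosome 14, and Cideb differed in the opposite direction.

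Cidec, which promotes the transfer of triglyceride between touching droplets, read 5.60, 5.48 and 5.76 in liver-null APAP livers, against 1.98, 2.40 and 2.69 in wild-type APAP livers. In saline it read 6.86, 5.73 and 4.41 in liver-null livers, against 1.96, 2.85 and 2.997 in wild-type livers. The liver-null saline arrays were widely spread (SD 1.23) and the liver-null APAP arrays were not (SD 0.14). The differences were 3.26 after APAP and 3.06 in saline. Of the 6 wild-type values 5 lay below the lowest array median (2.91; highest 2.99) and 3 below the 40th percentile (2.42 to 2.48), where little signal stands over background, so the size of the fold depends on dim values.

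Cideb, the family member that hepatocytes use to load triglyceride onto lipoproteins, read 9.83, 9.88 and 9.64 in liver-null APAP livers, against 9.92, 10.14 and 9.91 in wild-type APAP livers. The saline values were 9.87, 9.73 and 9.76 in liver-null livers, against 10.17, 10.09 and 9.91 in wild-type livers. The arrays of the genotypes did not overlap, but the gap was narrow, with differences of -0.21 after APAP and -0.27 in saline. Its probe set name marks probes that may bind more than 1 transcript.

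Plin4, a coat protein of newly formed droplets that is abundant in fat tissue, read 8.88, 8.57 and 6.38 in liver-null APAP livers, against 2.95, 3.20 and 3.52 in wild-type APAP livers. Without APAP, the readings were 8.38, 7.88 and 5.55 in liver-null livers, against 3.12, 4.25 and 4.37 in wild-type livers. The low liver-null arrays were liver-null APAP 17 and liver-null saline 16, those of the smaller array set, and they still lay above every wild-type array. The differences were 4.71 after APAP (26.2-fold) and 3.36 in saline (10.3-fold). The wild-type APAP arrays and wild-type saline 8 lay close to the median of the array (2.91 to 2.99), where little signal stands over background, so these folds depend on dim values.

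Plin2, the main droplet coat protein of hepatocytes, read 10.17, 9.74 and 10.29 in liver-null APAP livers, against 10.91, 10.47 and 10.64 in wild-type APAP livers. In saline it read 11.09, 9.64 and 10.003 in liver-null livers, against 10.54, 10.63 and 10.30 in wild-type livers. The arrays did not overlap after APAP, but liver-null saline 4 was the highest of all 12. The differences were -0.61 after APAP and -0.25 in saline.

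Mogat1 read 2.80, 2.81 and 1.97 in liver-null APAP livers, against 1.95, 1.90 and 2.08 in wild-type APAP livers. The saline values were 3.28, 2.96 and 2.07 in liver-null livers, against 1.99, 1.97 and 1.98 in wild-type livers. It passed the filter on dim genes (the 40th percentile of the array, 2.42 to 2.48, exceeded on at least 3 arrays) only through 4 liver-null arrays of the larger set. The liver-null arrays of the smaller set sat at the wild-type level. The differences were 0.55 after APAP and 0.79 in saline.

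G0s2, the lipase inhibitor, read 8.30, 7.70 and 8.38 in liver-null APAP livers, against 7.55, 8.84 and 9.35 in wild-type APAP livers. Without APAP, the readings were 8.92, 8.19 and 7.42 in liver-null livers, against 8.67, 8.29 and 9.02 in wild-type livers. The genotypes overlapped in both treatments, with differences of -0.45 after APAP and -0.48 in saline.

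Differences within the 2 array sets were compared next, since each set holds every group. Cd36 differed alike in both: by 2.30 in the larger and 2.46 in the smaller set after APAP, and by 2.29 and 2.31 in saline. Pparg differed by 1.96 and 1.28 after APAP, and by 2.09 and 1.37 in saline. Plin4 differed by 5.64 and 2.86 after APAP, and by 4.44 and 1.19 in saline. These values show Plin4 far less apart in the smaller set, and Pparg somewhat less. Cidec differed by 3.35 and 3.07 after APAP, but by 3.89 and 1.41 in saline. Fitm1 differed by 4.05 and 3.06 after APAP, and by 3.77 and 2.11 in saline. Mogat1 differed by 0.88 and -0.11 after APAP, and by 1.14 and 0.09 in saline. So Mogat1 differed in the larger set alone, G0s2 in saline differed by 0.08 and -1.60, and the smaller set has 1 array a group and no measure of spread. Whether the sets differ in these genes was not tested.

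**Figure D2:**
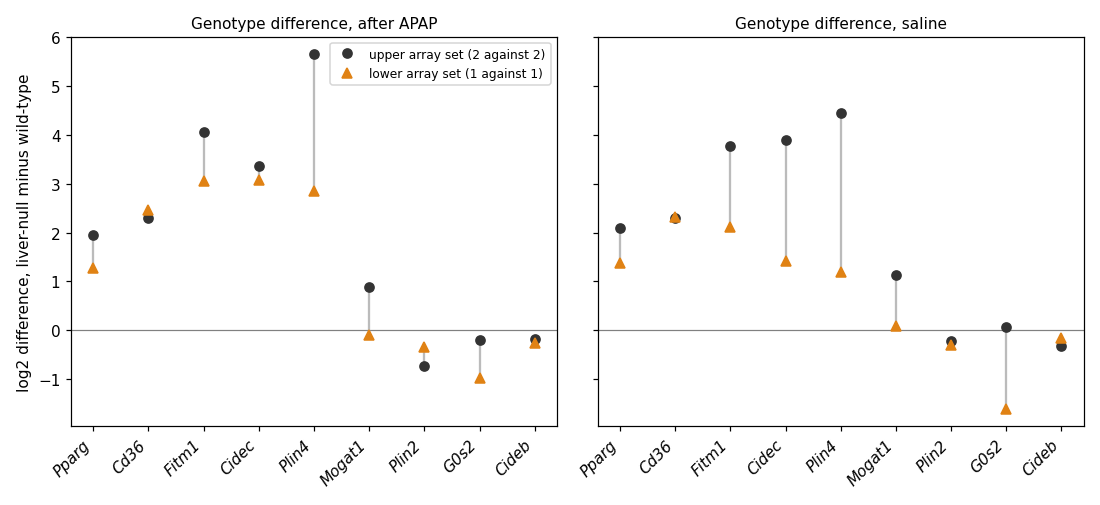
Log2 difference between liver-null and wild-type livers for 9 genes, after APAP (left) and in saline (right), within the set of 8 arrays (circles, 2 against 2) and the set of 4 (triangles, 1 against 1). Cd36 differs alike in both sets, while Plin4 differs by 4.44 and 1.19 in saline.

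The effect of APAP on the genes was then tested, a contrast that did not choose them. APAP was not seen to change any of the 9 at 8 hours in either genotype. In limma, 0 of the 9 passed an adjusted p of 0.05 over 8469 genes in liver-null livers, in wild-type livers or averaged over both, and 0 had an unadjusted p under 0.05. Of all 8469 genes, 0% passed in each of these comparisons, and 0.697% in liver-null livers, 1.69% in wild-type livers and 1.2% averaged had an unadjusted p under 0.05. The comparisons in single genotypes share arrays with the genotype differences above, while the average over both genotypes weighs the genotypes equally. In no gene did the 3 APAP arrays separate from the 3 saline arrays, which they did for 4.89% of all genes in liver-null and 5.02% in wild-type livers.

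Averaged over the genotypes, Pparg differed by -0.27 between APAP and saline livers (SE 0.19, 95% confidence interval -0.69 to 0.15, limma adjusted p = 1.00), so a rise above 0.15 or a fall beyond 0.69 lies outside this interval. Cd36 differed by -0.20 (interval -0.55 to 0.14) and Cideb by -0.04 (-0.22 to 0.15), and these 3 genes had the narrowest intervals of the 9. Fitm1 had the most negative average, -0.60, with an interval of -1.53 to 0.33. The averages of the others were -0.15 for Cidec, -0.12 for Mogat1, -0.07 for G0s2, -0.01 for Plin4 and 0.00 for Plin2. Within the larger and the smaller array set, they were -0.49 and 0.52 for Cidec, and -0.42 and 0.64 for G0s2. Plin2 (-0.15 and 0.31) and Mogat1 (-0.19 and 0.003) also changed sign between the sets, while the remaining genes did not. Whether the sets differ in this was not tested. The interval of Plin4 ran from -1.16 to 1.14, so an APAP effect of about 1 log2 unit in either direction was not excluded for this gene. In liver-null livers alone, the intervals of Cidec (-1.12 to 1.01) and G0s2 (-1.04 to 0.94) also reached about 1 log2 unit.

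In liver-null livers the differences of the 9 genes ranged from -0.35 to 0.67, the highest being Plin4 (SE 0.74). In wild-type livers they ranged from -0.85 to 0.18, the lowest being Fitm1 (SE 0.60). The test of the difference between the genotypes in their APAP effect called 0 of the 9, and 0 of all 8469 genes, with 1.29% of all genes and 0 of the 9 at an unadjusted p under 0.05 (limma). The largest such difference was that of Plin4, 1.36 (SE 1.05, interval -0.95 to 3.66, adjusted p = 0.999): its mean was 7.94 ± 1.36 in liver-null APAP and 7.27 ± 1.51 in liver-null saline livers, against 3.23 ± 0.28 in wild-type APAP and 3.91 ± 0.69 in wild-type saline livers.

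**Figure D3:**
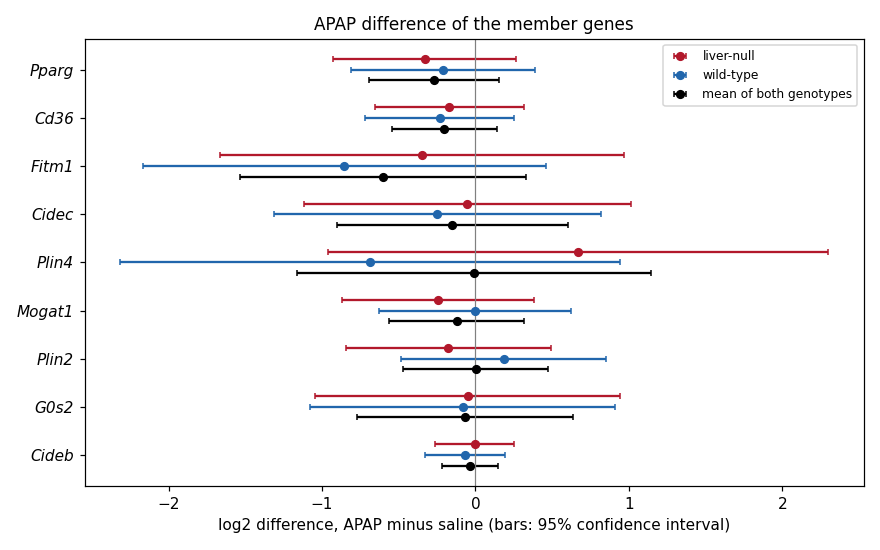
Log2 difference between APAP and saline livers for 9 genes, in liver-null mice, in wild-type mice and averaged, with 95% confidence intervals from limma. Every interval includes 0. Those of Plin4 and Fitm1 are the widest, and those of Cidec and G0s2 in single genotypes also reach about 1 log2 unit.

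Other genes of fat storage were read from 7 lists of 88 genes that are none of the 10, of which 75 had a probe set and 65 were tested. The median difference over the 65 was 0.00 after APAP and -0.06 in saline, against 0.00 and -0.03 over all genes. After APAP 1 of the 65 passed and was lower, while 0.768% of all genes passed and 0.189% passed as lower. In saline 0 of the 65 passed, while 0.638% of all genes did. At an unadjusted p under 0.05 stood 7 of the 65 after APAP (9.02% of all genes) and 13 in saline (12.2% of all genes, limma). For comparison, the median of the 9 picked genes was 1.73 after APAP and 1.85 in saline, which their choice sets. The same choice kept genes picked for their genotype difference out of the lists. The medians and counts of the 65 therefore describe only the remaining genes and do not show whether the whole pathway differed.

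The gene that passed was Fabp2, a fatty acid binding protein best known from intestine. It averaged 8.94 in liver-null APAP livers, against 9.77 in wild-type APAP livers (log2 difference -0.83, SE 0.16, limma adjusted p = 0.0426). In saline it averaged 9.08 in liver-null and 9.82 in wild-type livers and did not pass (-0.75, adjusted p = 0.0590, limma). The call after APAP was lost when only the 6 arrays were fitted (adjusted p = 0.102) and in 9 of 12 fits that left out 1 array (adjusted p = 0.0510 to 0.211). Those were the fits without liver-null APAP 2 or 3, liver-null saline 4, any wild-type APAP array or any wild-type saline array. With array set as a covariate Fabp2 passed in both treatments (adjusted p = 0.0167 after APAP and 0.0244 in saline).

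Of 8 tested genes of droplet coats and assembly, 0 passed in either treatment, with medians of -0.03 after APAP and 0.07 in saline. The largest differences after APAP were those of Plin5, a coat protein of tissues that burn fat (1.10, adjusted p = 0.571), and Hsd17b11 (-0.12), whose dimmer probe set gave 0.04. In saline they were those of Plin5 (0.45, adjusted p = 0.830) and Rab18, a droplet GTPase (0.31), whose other probe set gave 0.97. Of 10 genes of triglyceride breakdown 0 passed, with medians of 0.08 and -0.10. The carboxylesterase Ces1g differed by 1.16 after APAP and 1.34 in saline (adjusted p = 0.187 and 0.0976). It passed with array set as a covariate (adjusted p = 0.0438 and 0.0258), but not with only the 6 arrays compared (limma adjusted p = 0.124 and 0.220). Pnpla2, the lipase that G0s2 inhibits, differed by 0.56 after APAP, and its co-activator Abhd5 by -0.66 in saline, without passing. Their dimmer probe sets gave 0.12 for Pnpla2, below the filter, and -0.91 for Abhd5.

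Of 8 genes of triglyceride synthesis 0 passed, with medians of 0.17 after APAP and -0.01 in saline. After APAP the largest differences were those of the phosphatidate phosphatase Lpin1 (1.45, limma adjusted p = 0.512) and the acyltransferase Gpat4 (0.72). Their dimmer probe sets gave 1.59 for Lpin1 and 0.08 for Gpat4. In saline the largest differences were those of Gpam, the mitochondrial acyltransferase (-0.88, limma adjusted p = 0.0758), and Dgat2 (-0.37). The dimmer probe set of each gave -0.38. Gpam had a limma adjusted p of 0.0437 with array set as a covariate and 0.0922 with only the 6 arrays compared. Of 13 genes of fatty acid uptake, binding and activation only Fabp2 passed, with medians of -0.17 and -0.11. Fabp5, which binds fatty acids in skin and macrophages, had the largest saline difference of the list (-1.32, adjusted p = 0.229) and the lowest of all 65 after APAP (-1.76), which was named after its value was seen. The dimmer Fabp5 probe set gave -1.50 in saline and -2.11 after APAP. Of 6 genes of lipoprotein assembly 0 passed, with medians of -0.09 and -0.10. Tm6sf2 differed by -0.40 after APAP and -0.35 in saline, Apob by -0.16 after APAP and Sar1b by -0.12 in saline.

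Among 15 partners and regulators of PPAR-gamma 0 passed, with medians of 0.14 after APAP and 0.03 in saline. Cebpd, a transcription factor that precedes Pparg in fat cell formation, differed by 1.01 after APAP and 1.85 in saline (adjusted p = 0.563 and 0.105). In saline Cebpd passed with array set as a covariate (adjusted p = 0.0259), but not with only the 6 arrays compared (limma adjusted p = 0.205). Its second probe set, below the filter, gave 0.13 and 0.16. Nr1i2, the pregnane X receptor, differed by 0.80 after APAP and the coactivator Ppargc1b by -0.57 in saline, without passing. The dimmer probe set of Nr1i2 gave 0.84 after APAP. Of 9 tested targets of PPAR-gamma in fat tissue, out of 20 listed, 0 passed, with medians of 0.06 and 0.17. Dgat1 (0.43) and Pdk4 (0.38) had the largest differences after APAP, and Angptl4, a lipase inhibitor (0.91, adjusted p = 0.475), and Pdk4 (0.45) in saline. The dim second probe set of Angptl4 differed by -0.02. After APAP against saline, 0 of the 65 passed in liver-null livers (-0.45 to 0.61 over the 65) and 0 in wild-type livers (-0.76 to 0.48), with 0 and 1 at an unadjusted p under 0.05 (limma).

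**Figure D4:**
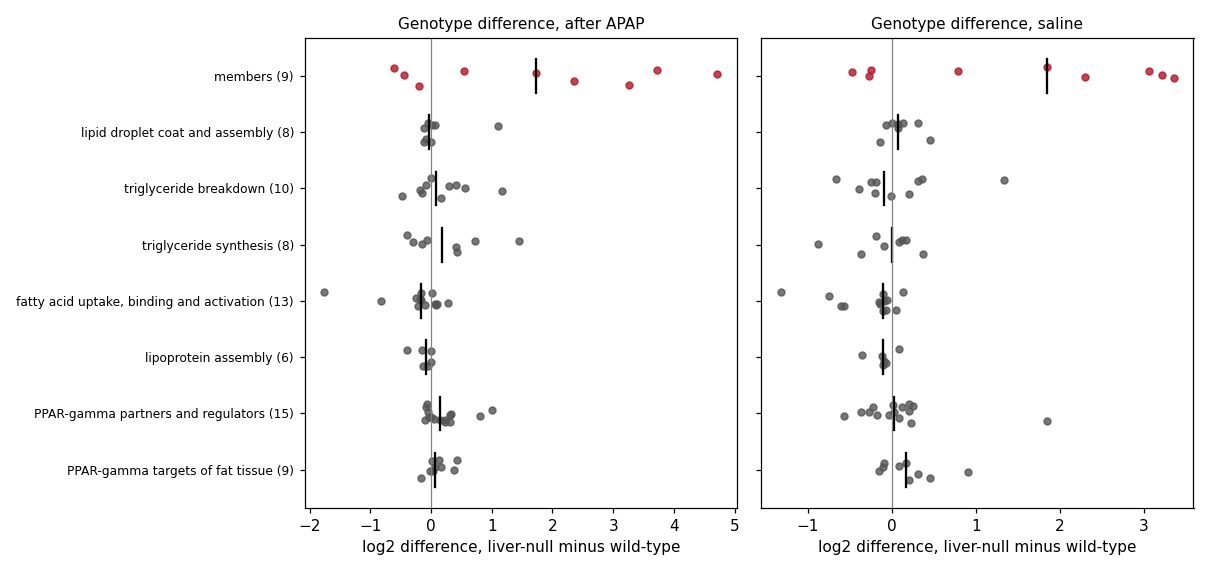
Log2 difference between liver-null and wild-type livers after APAP (left) and in saline (right) for the 9 picked genes (red) and for the tested genes of 7 lists (grey, number in parentheses), with list medians as bars. The medians of the picked genes, 1.73 and 1.85, are set by their choice. Medians of the lists, which leave out the picked genes, lie between -0.17 and 0.17. Single picked genes reach 4.71 and 3.36. Single genes of the lists range from -1.76 to 1.45 after APAP and from -1.32 to 1.85 in saline.

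Markers of other cells were read in the same arrays as the mean log2 value of a list per liver. Of 7 fat cell markers 4 had a probe set, Adipoq, Lep, Retn and Cidea, and their mean was 1.75 to 2.03 in liver-null APAP, 1.83 to 1.97 in liver-null saline, 1.70 to 1.93 in wild-type APAP and 1.80 to 1.83 in wild-type saline livers. The list means lie below the 40th percentile of the array. Adipoq, the defining marker, averaged 1.18 over the 12 arrays and ranged from 0.97 to 1.32, and Lep ranged from 1.24 to 1.73. Retn ranged from 2.36 to 2.83, passed the filter on dim genes and averaged 2.56 in liver-null APAP and 2.69 in liver-null saline, against 2.54 in wild-type APAP and 2.52 in wild-type saline livers. Cidea ranged from 1.92 to 2.52. The 8 skeletal muscle markers averaged 1.84 to 1.93, 1.89 to 1.98, 1.80 to 2.00 and 1.88 to 2.01 in the same groups, and 0 of them passed the filter on dim genes. The 11 markers of Kupffer cells and macrophages, which also express Cd36, averaged 6.02 to 7.30 in liver-null APAP and 6.34 to 7.33 in liver-null saline, against 6.62 to 7.14 in wild-type APAP and 6.53 to 7.10 in wild-type saline livers. The 8 endothelial markers averaged 4.37 to 4.89 and 4.20 to 4.90 in liver-null, against 4.22 to 4.73 and 4.25 to 5.03 in wild-type livers, again APAP first. The 10 stellate markers averaged 4.53 to 4.86 and 4.46 to 4.82 in liver-null, against 4.75 to 5.01 and 4.81 to 5.24 in wild-type livers. The last 3 lists overlapped between the genotypes, with the stellate ranges shifted lower in liver-null livers and meeting in saline only between 4.81 and 4.82. In these 3 lists 0 genes passed in any comparison (limma). Of all genes, 0.768% passed between the genotypes after APAP and 0.638% in saline, so little is read from a count of 0. The part of these cells in the results was not tested. The 9 hepatocyte markers averaged 12.54 to 12.74 over all 12 livers.

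The genes with array profiles most like Pparg, Cd36 and Cidec were listed by Pearson correlation over the 12 arrays, as a description. Since the arrays fall into 2 genotypes, these values largely state that a gene differed between them. Nearest to Pparg were Ctse (r = 0.95), Lgals1 (0.95), Creg1 (0.94) and Rad51b (0.94). Nearest to Cd36 were Lad1 (0.95), Pcp4l1 (0.95), Gstm2 (0.94) and Ctse (0.94). Nearest to Cidec were Tpm2 (0.97), Srxn1 (0.97), Lgals1 (0.96) and Snhg11 (0.96). After group means were taken out, the values of the Pparg neighbours were 0.56, 0.69, 0.56 and 0.75, in the order given. Those of the Cidec neighbours were 0.80, 0.79, 0.76 and 0.68, and those of the Cd36 neighbours 0.60, 0.11, 0.10 and -0.21. These values are partly set by the choice of the highest r over the same arrays. These correlations share arrays, array sets and the normalization.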

How the data were processed

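Expression was measured in 12 livers, 1 Affymetrix array each, in 4 groups of 3 taken from the labels. The authors deposited 1 log2 value for each probe set, and RMA, which corrects background, normalizes and summarizes probes, is the tool in the submitters' processing notes. Its version and the arrays it was run on together were not stated. Array medians were 2.91 to 2.99. For arrays, the number of arrays limits the precision. Of 22690 probe sets, 20380 have 1 gene symbol in the platform annotation, 691 have several and were left out, 1555 have none listed and 64 are controls. The entrez identifiers of 20351 probe sets matched RefSeq on GRCm38.p6.

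Of several probe sets for a gene, the brightest on average stood for it (12393 genes). Genes above the 40th percentile of an array on 3 or more arrays were tested (8469 genes). Limma 3.58.1 in R 4.3.3 was fitted with a mean for each group over all 12 arrays (8 residual degrees of freedom) and called genes at a Benjamini-Hochberg adjusted p under 0.05, two-sided. Tests rest on the spread between mice, with each liver taken as from its own mouse. The fit was tested on simulated data. Array sets were defined by the largest gap in the upper quartile of the arrays.

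The 10 genes, the 7 pathway lists and the marker lists were chosen with earlier results of these data known. For the genotype comparisons, the pathway genes named are, per list, those that passed (at most 4 higher and 4 lower) or, if there were none, the 2 with the largest difference. For APAP against saline, ranges are given instead. Alternatives covered array set, filters, probe sets, normalization, the arrays fitted, weights, the variance prior and leaving out each array.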

Additional observations from a re-analysis of the deposited data

How the results depend on the processing

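No paired analysis was possible because no replicate number is shared between groups. Under every alternative fitted, 0 of the 9 genes were called for APAP in either genotype, averaged or as an interaction, and 0 of the 65 pathway genes for APAP in either genotype. Of all genes tested, 0 were called for APAP in either genotype under these alternatives. The counts in single genotypes therefore say nothing particular about the chosen genes.

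The median genotype difference of the 9 genes moved to 1.28 after APAP and 1.19 in saline within the smaller array set (1.73 and 1.85 over all arrays), and Mogat1 after APAP became -0.11 there. The number of pathway genes called between the genotypes after APAP, 1 over all arrays, was 2 with array set as a covariate and 0 with only the 6 arrays compared. It was 0 to 2 when 1 array was left out (2 without liver-null APAP 17, which added Nr1i2). Over all genes, 65 were called after APAP, against 185 with array set as a covariate and 39 with only the 6 arrays compared. In saline the number was 0 over all arrays, and 0 with only the 6 arrays compared, other filters, every probe set or either scaling. With array set as a covariate it was 5 (Ces1g and Cebpd higher, Acsl5, Fabp2 and Gpam lower). It was 3 with a trended and robust prior and 14 with array weights (4 higher, 10 lower). Leaving out 1 array gave 0 to 1 (Cebpd without liver-null saline 16, Ces1g without wild-type saline 10). Over all genes the saline calls also rose, from 54 to 243 with array set, 121 with the prior and 1323 with array weights. These counts are therefore not read as a result about the pathway genes. Causes were not tested.

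Among APAP differences near 0, the sign depended on single arrays. Leaving out 1 array, the averaged difference ranged from -0.47 to 0.15 for Cidec, -0.26 to 0.19 for G0s2, -0.30 to 0.015 for Mogat1, -0.15 to 0.21 for Plin2 and -0.44 to 0.38 for Plin4, and that of Plin4 in liver-null livers from -0.19 to 1.45. With array weights that of Cideb was 0.021. The median of all genes moved by under 0.1 under either scaling. Values near or below the median of the array limit what can be read of Mogat1, of wild-type Cidec and Plin4, and of the third Cd36 probe set.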
